A study of Mus musculus with 6 samples.

Results

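The genes of V(D)J recombination and antibody diversification were examined in A20, a mouse B cell lymphoma line of the BALB/C strain. The set holds 9 genes, Rag1, Rag2, Dntt, Dclre1c, Prkdc, Lig4, Xrcc4, Polm and Ung, which were taken from a list of symbols through their Entrez identifiers. All 9 were among the 27179 gene identifiers of the count files, and 8 passed the filter on low counts that left 12430 genes for testing. Dntt was the member that did not pass.

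RNA-seq of polyA RNA covered 3 groups with 2 biological replicates each. Wild-type A20 cells carried no vector. The control sgRNA TETact-v3 cells carried the lentiviral TETact components, which bring the TET1 catalytic domain and the p65-hsf1 activator to a catalytically dead Cas9, together with a non-targeting sgRNA, and the Cd4 sgRNA TETact-v3 cells carried the same components with an sgRNA against the Cd4 promoter. All cells were cultured alike, without stimulation according to the labels, and transduced cells were enriched by sorting on the vectors' fluorescent markers, so that transduction, sorting and the TETact proteins separate both transduced groups from wild type together and cannot be told apart here. The targeted gene Cd4 had 30959 and 40422 counts in the libraries labelled with its sgRNA and at most 127 in any other, which checks those labels. For the cell type, which all groups share, Cd79a, Ms4a1 and Cd74 were present in every library and Cd3e, a defining T cell gene, was at 0 counts in all 6.

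In developing lymphocytes, RAG1 and RAG2 form the recombinase that cuts DNA at the signal sequences beside V, D and J gene segments. The cut ends are then held and joined by non-homologous end joining. DNA-PKcs (Prkdc) and Artemis (Dclre1c) open the hairpin ends, terminal transferase (Dntt) adds bases without a template, polymerase mu (Polm) fills gaps, and ligase IV (Lig4) with its partner Xrcc4 seals the join. Ung removes uracil from DNA and takes part in class switching and somatic hypermutation, the later diversification steps of mature B cells. Rag expression is normally shut off once a B cell is mature.

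Library totals lay between 23194920 counts in wild-type replicate 2 and 121623410 in control sgRNA replicate 1, and 3 counts, the detection floor used here, corresponded to between 0.0270 and 0.140 CPM (counts scaled to a common library size with TMM factors). Mitochondrial genes took 2.65% and 2.69% of the wild-type counts, 5.96% and 6.90% of the Cd4 sgRNA counts, and 6.63% and 11.5% of the control sgRNA counts. The 2 control sgRNA libraries stood further apart than the replicates of the other groups. The chi-square of their counts over tested genes, divided by its degrees of freedom, was 243.2, against 7.982 in wild type and 6.892 in Cd4 sgRNA cells. That ratio also rises with depth, and the control sgRNA libraries were the deepest. The Pearson correlation of log2 CPM between replicates was 0.9857 in control sgRNA, 0.994 in wild-type and 0.9951 in Cd4 sgRNA cells. The part of the mitochondrial share and of this spread in the results was not tested. In such bulk libraries, fewer cells expressing a gene and less RNA per cell cannot be told apart.

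Rag1 (Entrez 19373) lies on the minus strand at chr2:101638252-101649532 of GRCm38, and Rag2 (Entrez 19374) on the plus strand at chr2:101624712-101632528. Their 3′ ends face each other across 5723 bases. The 250 bases before the annotated start of each gene are shown because the TETact-v3 cells carry a demethylating enzyme and these are the 2 members whose RNA fell. They come from the RefSeq promoter windows of GRCm38.p6, Rag1 from chr2:101649533-101649782 (minus strand) and Rag2 from chr2:101624462-101624711 (plus strand), each read 5′ to 3′ in the direction of its gene with CpG dinucleotides in capitals.
Rag1: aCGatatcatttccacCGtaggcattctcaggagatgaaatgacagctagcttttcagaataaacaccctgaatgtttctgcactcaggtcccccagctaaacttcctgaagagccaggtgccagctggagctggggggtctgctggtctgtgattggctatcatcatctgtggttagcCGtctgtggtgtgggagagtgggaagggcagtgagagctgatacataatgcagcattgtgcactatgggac
Rag2: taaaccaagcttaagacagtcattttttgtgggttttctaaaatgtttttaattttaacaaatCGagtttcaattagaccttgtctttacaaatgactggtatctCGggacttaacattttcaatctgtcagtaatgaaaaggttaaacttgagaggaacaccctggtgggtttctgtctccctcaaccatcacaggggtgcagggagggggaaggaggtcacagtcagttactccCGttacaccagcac

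Both promoters are poor in CpG. Over the whole window of 300 bases, which adds 50 bases after the start, Rag1 and Rag2 each hold 3 CpG, the lower quartile of the 32851 windows of the genome, whose median is 7. A window was matched for 8 of the 9 members, and Prkdc was the one without. The Dntt window holds 2 CpG, whereas the other windows hold more, with 12 for Dclre1c, 16 for Ung, 17 for Polm, 29 and 30 for the 2 starts of Lig4 and 31 for Xrcc4, in a genome whose upper quartile is 20. The windows with the fewest CpG were thus those of Rag1, Rag2 and Dntt, genes known to be expressed mainly in developing lymphocytes. DNA methylation at these sites was not analysed here.

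The windows were also searched on both strands for short motifs of factors linked to Rag transcription. The E-box letters CAGGTG, bound by E proteins such as E2A, occur in the Rag1 window, with the first base 135 bases before the start, and in that of Ung, as they do in 20.21% of all windows. The Ets core GGAAGT occurs in the windows of Rag1, Ung, Dclre1c, Lig4 and Polm, against 23.77% of all windows. The broader E-box CANNTG, which includes CAGGTG, was found in the window of every member that had one except Xrcc4. It occurs in 72.31% of all windows. The letters CCAAT were found in the windows of Rag1, Dclre1c and Polm, against 37.41% of all windows. The letters of the forkhead motif GTAAACA, of an NF-kB motif and of TATAAA were not in any member's window, and occur in 3.65%, 0.41% and 13.62% of windows. These matches describe letters, not binding.

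Rag1 RNA was present in wild-type A20 and near the floor in both transduced groups. Rag1 stood at 10.2 and 9.71 CPM in the wild-type libraries, at 0.126 and 0.136 CPM in the control sgRNA libraries and at 0.153 and 0.158 CPM in the Cd4 sgRNA libraries. These values rest on 475 and 208 counts in wild type, on 14 and 11 in control sgRNA and on 5 and 7 in Cd4 sgRNA cells. The wild-type libraries lay far above all 4 transduced libraries although the control sgRNA libraries were the most deeply sequenced. Rag1 was 75.2-fold lower in control sgRNA than in wild-type cells by edgeR's quasi-likelihood test (log2 fold change −6.23, standard error, SE, 0.235, Benjamini-Hochberg adjusted p = 0.000124). In Cd4 sgRNA cells it was 63.2-fold lower than in wild type (log2 fold change −5.98, standard error 0.253, adjusted p = 0.000186, edgeR). Among the 12430 genes tested, this was the 3rd most negative fold change in control sgRNA cells and the 5th most negative in Cd4 sgRNA cells.

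Rag2 fell less far and stayed well above the floor. It stood at 9.04 and 10.4 CPM in wild type, at 1.59 and 2.05 CPM in control sgRNA cells and at 1.190 and 1.197 CPM in Cd4 sgRNA cells. The groups did not overlap, and the counts behind the transduced values ranged from 39 to 177. By edgeR's quasi-likelihood test the fall was 5.33-fold in control sgRNA cells (log2 fold change −2.42, standard error 0.206, adjusted p = 0.00126) and 8.12-fold in Cd4 sgRNA cells (log2 fold change −3.02, standard error 0.222, adjusted p = 0.000949).

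The balance of the 2 recombinase genes changed with the fall, which can be read within each library without any scaling. Rag1 made up 53.07% of the summed Rag1 and Rag2 counts in wild-type replicate 1 (95% Wilson interval 49.8 to 56.32) and 48.26% in replicate 2 (43.58 to 52.97). In control sgRNA cells its share was 7.33% (4.416 to 11.93) and 6.215% (3.505 to 10.78). The share in Cd4 sgRNA cells was 11.36% (4.953 to 23.98) and 11.67% (5.768 to 22.18). The intervals, which cover counting error only, separate every transduced library from both wild-type libraries, while those of the 4 transduced libraries overlap. With 2 against 2 libraries an exact permutation test of such a share cannot give a two-sided p below 0.333.

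Part of the Rag1 and Rag2 readings could be shared with another gene. Iftap is a gene on the minus strand whose transcripts run through the locus. In GENCODE M21 it shares 208 of the 3424 exon bases of Rag2, on the opposite strand. With Rag1 it shares 80 of the 6608 exon bases, on the same strand. Of its 12 transcripts there, 3 begin at the first base of Rag1 in RefSeq, 31 bases from the GENCODE start of Rag1. By the RefSeq positions, the span of Rag1 overlaps no other gene and that of Rag2 overlaps Iftap. The authors counted reads on a RefSeq annotation, whose exons were not compared here. Whether the counting used strand is not stated. Iftap itself stood at 34.3 and 35.5 CPM in wild type, 31.9 and 30.7 in control sgRNA and 28.9 and 30.9 in Cd4 sgRNA cells, with log2 fold changes against wild type of −0.16 and −0.22 that did not pass the test (edgeR adjusted p = 0.239 and 0.128). The shared bases are 208 with Rag2 and 80 with Rag1 of the 4289 exon bases of Iftap, which stood above both Rag genes in every library. How many of the Rag1 and Rag2 counts left in transduced cells come from shared bases was not tested. The folds of both genes and the Rag1 shares carry this limit.

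**Figure D1:**
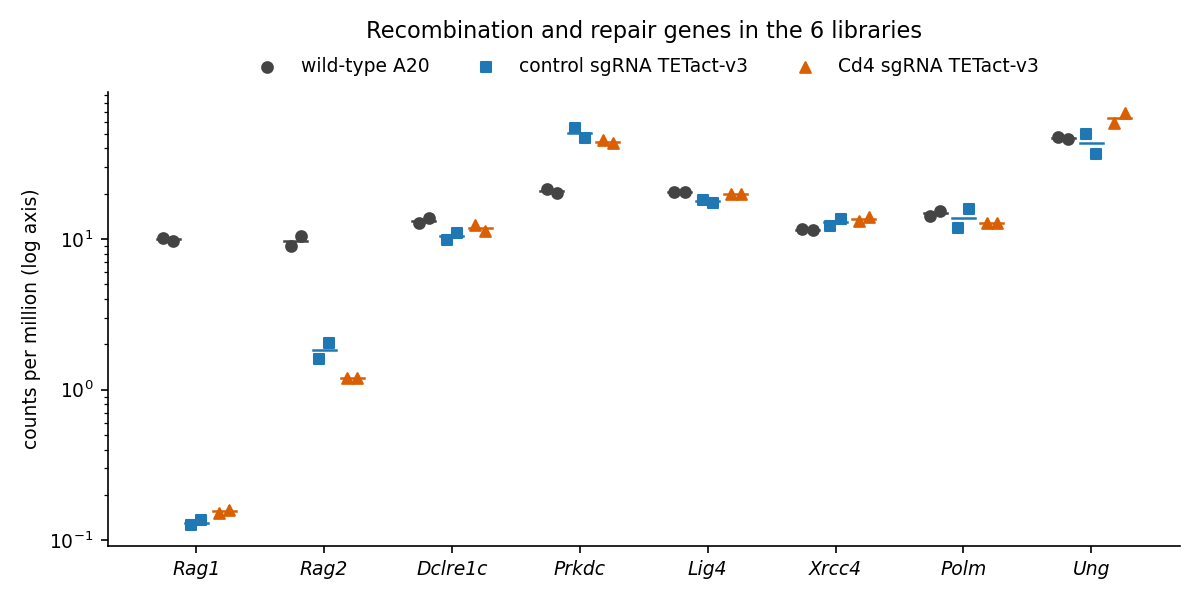
CPM (log axis) of the 8 members that passed the filter, for each of the 6 libraries, with a short line at the mean of each group of 2. Rag1 and Rag2 lie below wild type in all 4 transduced libraries, Prkdc lies above, and the other members lie close to the wild-type level.

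Dntt, which adds untemplated bases at the join, was essentially undetected. It had 0 counts in 5 libraries and 4 counts, or 0.090 CPM, in Cd4 sgRNA replicate 2. A count of 0 in these libraries allows a level of up to 0.0270 CPM in the deepest and 0.140 CPM in the shallowest library. No fold is given, and Dntt was not tested.

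Prkdc, the catalytic subunit of DNA-PK, was the member that rose. It stood at 21.4 and 20.2 CPM in wild type, at 55.0 and 46.7 CPM in control sgRNA cells and at 45.3 and 43.6 CPM in Cd4 sgRNA cells. All 4 transduced libraries were above both wild-type libraries. The rise was 2.45-fold in control sgRNA cells (log2 fold change 1.29, standard error 0.113, edgeR adjusted p = 0.00139) and 2.14-fold in Cd4 sgRNA cells (log2 fold change 1.10, standard error 0.113, edgeR adjusted p = 0.00261). Prkdc spans chr16:15637444-15842239, and its long transcript puts it among the lowest members per length in wild type despite its counts.

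The other end joining members showed no change that passed the test against wild type. Dclre1c, the Artemis nuclease at chr2:3424061-3474211, stood at 12.7 and 13.8 CPM in wild type, at 9.92 and 10.9 in control sgRNA and at 12.5 and 11.3 in Cd4 sgRNA cells, which gave log2 fold changes of −0.35 (edgeR adjusted p = 0.0841) and −0.16 (0.4). Lig4, at chr8:9970020-9977680, stood between 20.4 and 20.6 CPM in wild type, 17.4 and 18.2 in control sgRNA and at 19.9 in both Cd4 sgRNA libraries, with log2 fold changes of −0.21 (edgeR adjusted p = 0.153) and −0.045 (0.766). Xrcc4, at chr13:89848914-90089608, read 11.6 and 11.4 CPM in wild type, 12.1 and 13.7 in control sgRNA and 13.2 and 14.1 in Cd4 sgRNA cells, with log2 fold changes of 0.16 (edgeR adjusted p = 0.345) and 0.24 (0.197). The ligase and its partner carried opposite signs in both comparisons, without a call in either. Polm, at chr11:5827860-5838832, read 14.3 and 15.4 CPM in wild type, 11.8 and 15.9 in control sgRNA and 12.8 and 12.9 in Cd4 sgRNA cells, so that the control sgRNA libraries spanned the wild-type values, with log2 fold changes of −0.10 (edgeR adjusted p = 0.67) and −0.20 (0.4). With 1 control sgRNA library left out, some of these values passed the threshold. In control sgRNA cells these were Lig4 (−0.22, edgeR adjusted p = 0.0421) and Xrcc4 (0.27, 0.0309) without replicate 1, and Dclre1c (−0.41, 0.0017) and Polm (−0.32, 0.0088) without replicate 2, where Polm had the opposite sign, 0.13, without replicate 1. Xrcc4 in Cd4 sgRNA cells passed without control sgRNA replicate 1 (0.27, edgeR adjusted p = 0.0157) or replicate 2 (0.24, 0.029) and with only the 2 groups compared (0.0324). Dclre1c shares 357 exon bases with Suv39h2 and Xrcc4 112 with Tmem167, both on the opposite strand.

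Ung, the uracil glycosylase at chr5:114130366-114139321, had the highest level per length of the set. It stood at 47.6 and 46.5 CPM in wild type, at 49.6 and 36.7 CPM in control sgRNA and at 59.3 and 68.7 CPM in Cd4 sgRNA cells. The Cd4 sgRNA libraries were above all others, and the control sgRNA libraries fell on either side of wild type. Against wild type the log2 fold change was −0.12 in control sgRNA cells (edgeR adjusted p = 0.581) and 0.44 in Cd4 sgRNA cells (edgeR adjusted p = 0.0874), neither past the threshold. Without control sgRNA replicate 1 the former was −0.34 (edgeR adjusted p = 0.000335). The Ung value in Cd4 sgRNA cells passed it under DESeq2 (adjusted p = 0.0494), without the filter on low counts (0.046), with only the 2 groups compared (1.18e-06), and with either control sgRNA library left out, and over the 16 alternatives its adjusted p ranged from 3.76e-08 to 0.401. The RefSeq span of Ung overlaps that of Alkbh2, but no exon bases shared with another gene were found for Ung in GENCODE M21. Whether their RefSeq exons overlap was not examined.

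Per length of transcript, the members fell into a clear order in wild-type cells. In RPKM, counts scaled for transcript length and library size (mean ± SD, n = 2), Ung stood at 22.4 ± 0.39, Xrcc4 at 7.44 ± 0.062, Polm at 5.07 ± 0.28, Lig4 at 5.03 ± 0.038, Rag2 at 2.87 ± 0.29, Dclre1c at 2.14 ± 0.13, Prkdc at 1.64 ± 0.067 and Rag1 at 1.49 ± 0.054. Polm and Lig4 do not differ beyond their spread. In control sgRNA cells Prkdc moved up to 4.01 ± 0.47 RPKM and the 2 Rag genes took the last tested places, with Rag2 at 0.54 ± 0.096 and Rag1 at 0.020 ± 0.0011. The corresponding levels in Cd4 sgRNA cells were 3.51 ± 0.095 for Prkdc, 0.35 ± 0.0015 for Rag2 and 0.023 ± 0.00059 for Rag1.

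In counts, 3 of the 8 tested members passed the threshold in control sgRNA against wild-type cells, 1 higher and 2 lower, where 29.3% of all genes tested did so. Another 3 of 8 did so in Cd4 sgRNA against wild-type cells, again 1 higher and 2 lower, against 23.1% of all genes. These background shares moved with single libraries, since the genes called higher numbered 255 without wild-type replicate 1 and 4190 without control sgRNA replicate 1 in the first comparison, and 138 and 4160 in the second. The CPM ranges of the groups did not overlap for 6 of 8 members in control sgRNA against wild-type cells and for 8 of 8 in Cd4 sgRNA against wild-type cells, beside 67.1% and 79.8% of all genes. These shares of a small set are near the background, with 43.1% and 39.3% of all genes at an unadjusted p under 0.05, so the number of called members is no result about the set. The median log2 fold change over the 8 members was −0.17 and −0.10, against medians near 0.00 over all genes. Rag1, Rag2 and Prkdc were called in both comparisons, which share the wild-type libraries and are therefore not independent of each other. All 3 kept their direction and their call under each of the 16 alternatives in both comparisons, with log2 fold changes between −6.98 and −6.15 for Rag1, between −2.59 and −2.21 for Rag2 and between 1.18 and 1.40 for Prkdc in control sgRNA cells. The ranges in Cd4 sgRNA cells were −6.33 to −5.90, −3.10 to −2.89 and 1.07 to 1.17. The highest adjusted p among them was 0.0475, for Prkdc in Cd4 sgRNA cells without wild-type replicate 1.

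**Figure D2:**
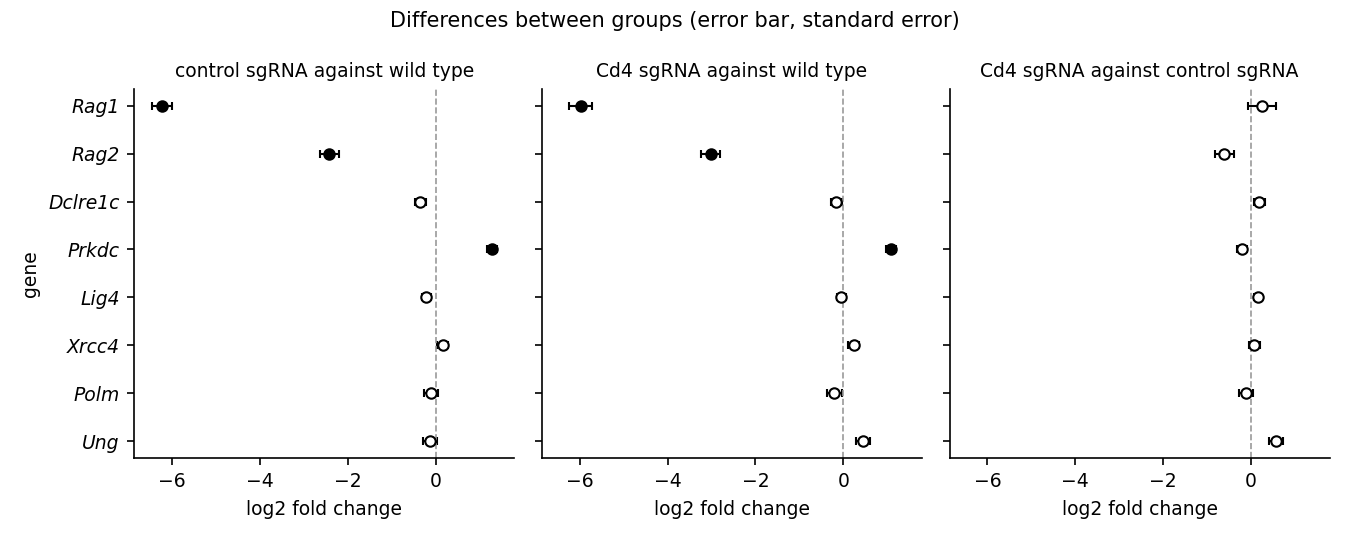
Log2 fold changes of the 8 tested members in the 3 comparisons, with bars for the standard error and filled points for genes past an adjusted p of 0.05. Rag1, Rag2 and Prkdc are filled in both comparisons with wild type, and no member is filled between Cd4 sgRNA and control sgRNA cells.

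The comparison of Cd4 sgRNA with control sgRNA cells, which asks what the Cd4 guide adds, called none of the 8 members by edgeR, where 0.0724% of all genes passed, 0.0161% higher and 0.0563% lower. At an unadjusted p under 0.05, 2 members passed, Ung and Rag2, as did 26% of all genes. The Ung log2 fold change was 0.57 (SE 0.157, adjusted p = 0.125), with both Cd4 sgRNA libraries above both control sgRNA libraries. It was past the threshold in 4 of 16 alternatives, DESeq2 (adjusted p = 0.0204), no filter on low counts (0.0434), and without control sgRNA replicate 1 (3.42e-12) or replicate 2 (0.000167), while the adjusted p over all 16 reached 0.579. Rag2 was lower in Cd4 sgRNA cells by a log2 fold change of −0.61 (SE 0.218, adjusted p = 0.161) and passed without control sgRNA replicate 1 alone (adjusted p = 0.00253). Without that library 3867 genes were called higher and 3879 lower in this comparison, against 2 and 7 with it. Rag1 differed by 0.25 (SE 0.326, adjusted p = 0.744), on counts of at most 14. The log2 fold changes of the remaining members lay between −0.20 for Prkdc and 0.19 for Dclre1c, and of these Prkdc passed without control sgRNA replicate 2 (adjusted p = 0.000961) and Polm without replicate 1 (0.0119). The ranges did not overlap for 6 of the 8 members, beside 59.6% of all genes. voomLmFit called none of the 8 either, and DESeq2 called Ung.

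The genes beside the Rag pair were followed to see whether the fall extended along the chromosome. Control sgRNA cells had 3 of 5 neighbours lower than wild type and none higher, where 13.6% of all genes were lower, and Cd4 sgRNA cells had 0 of 5 in either direction. Prr5l, which encodes a partner of the mTOR complex, read 1.66 and 1.59 CPM in wild type, 0.378 and 0.643 in control sgRNA and 0.763 and 0.633 in Cd4 sgRNA cells. Its log2 fold change was −1.68 in control sgRNA cells (edgeR adjusted p = 0.0166) and −1.22 in Cd4 sgRNA cells (edgeR adjusted p = 0.0547). Commd9 read 15.3 and 15.8 CPM in wild type, 9.08 and 5.95 in control sgRNA and 14.2 and 14.3 in Cd4 sgRNA cells, with log2 fold changes of −1.05 (edgeR adjusted p = 0.0137) and −0.13 (0.669). Traf6, a signalling adaptor for innate receptors and the next gene past the start of Rag1, read between 88.4 and 114 CPM, with log2 fold changes of −0.29 (edgeR adjusted p = 0.042) and −0.27 (0.0606). Trim44 stood at 0.060 and 0.21 (edgeR adjusted p = 0.688 and 0.188). No neighbour fell as far as Rag2 in its fold change in either comparison. The 3 neighbour calls were lost without wild-type replicate 1, with adjusted p up to 0.211, and without wild-type replicate 2, with adjusted p up to 0.303, and that of Traf6 also without either Cd4 sgRNA library (up to 0.126), with library size only (0.0576), with no filter on low counts (0.0676), with only the 2 groups compared (0.125) and with the replicate block (0.0776).

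**Figure D3:**
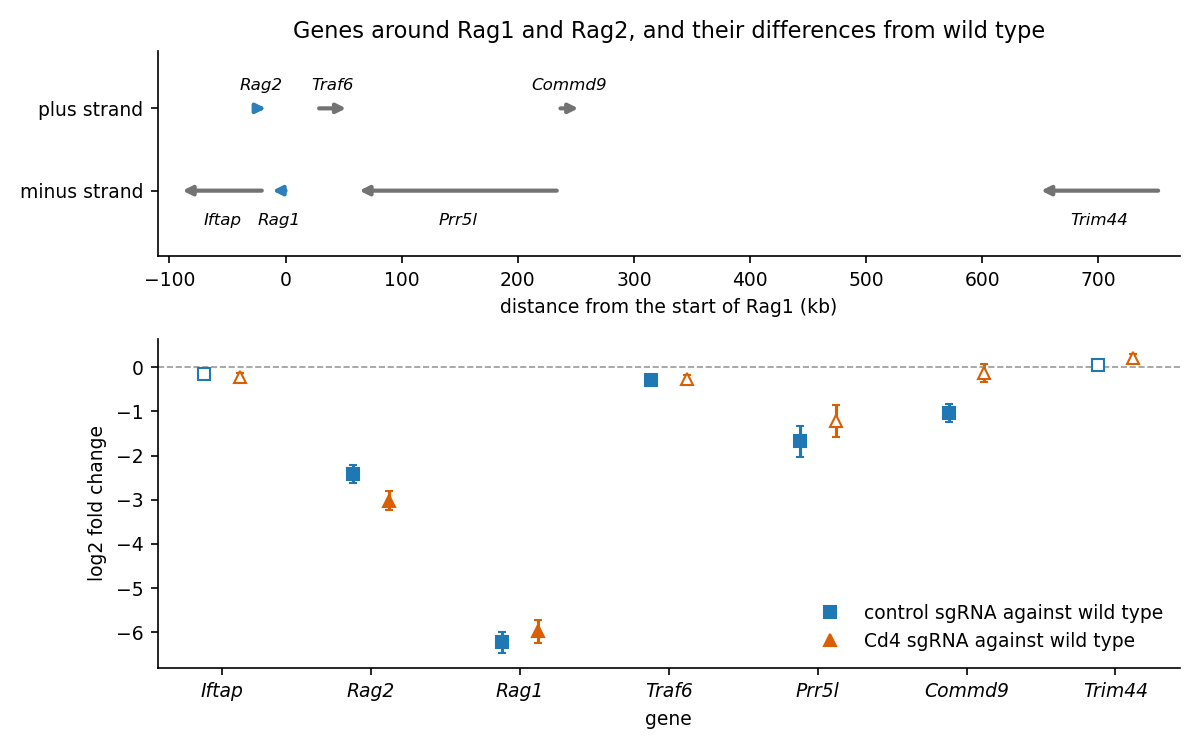
Top, the 7 genes around Rag1 and Rag2 by strand and distance from the start of Rag1 in kilobases, with arrows in the direction of transcription. Bottom, the log2 fold change of each gene against wild type with its standard error, filled where the adjusted p is under 0.05. Rag1 and Rag2 lie lowest in both transduced groups, and Iftap and Trim44, at the outer ends, are open in both.

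Regulators of Rag transcription moved in both directions. Against wild type, 5 of 23 tested rose and 6 fell in control sgRNA cells, and 3 rose and 10 fell in Cd4 sgRNA cells, where the shares over all genes were 15.7% and 13.6%, and 11.3% and 11.8%. The median log2 fold change of the list was −0.21 and −0.33. Foxo1, the forkhead factor that activates Rag expression in early B cells, stood at 259 and 269 CPM in wild type, 137 and 166 in control sgRNA and 136 and 128 in Cd4 sgRNA cells. Its log2 fold change was −0.80 (edgeR adjusted p = 0.00531) and −1.0 (0.00398), with no overlap between the groups. Foxo3, its relative, moved the other way in control sgRNA cells, from 27.2 and 28.6 CPM to 67.8 and 98.6, a log2 fold change of 1.58 (edgeR adjusted p = 0.00279), and read 40.9 and 39.5 CPM in Cd4 sgRNA cells (log2 fold change 0.53, edgeR adjusted p = 0.0756).

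Irf4, a factor of light chain recombination and of plasma cell differentiation, rose from 33.3 and 34.5 CPM to 93.9 and 145 in control sgRNA and 114 and 104 in Cd4 sgRNA cells (log2 fold change 1.82 and 1.69, edgeR adjusted p = 0.00275 and 0.00459). Its relative Irf8 fell in Cd4 sgRNA cells, by a log2 fold change of −1.38 (edgeR adjusted p = 0.00632), and in control sgRNA cells, by −1.01 (0.0112). Tcf12, which encodes the E protein HEB, fell in both (log2 fold change −0.49 and −0.59, edgeR adjusted p = 0.00824 and 0.00671), and Spi1, which encodes PU.1, had −0.83 and −0.33 (edgeR adjusted p = 0.00173 and 0.0304). Sp1 rose in control sgRNA cells by 0.41 (edgeR adjusted p = 0.0148), and in Cd4 sgRNA cells Myb rose by 0.58 and Bcl11a by 0.47 (edgeR adjusted p = 0.0104 and 0.0196). The core B cell factors did not pass the test in either comparison. Pax5 had log2 fold changes of −0.32 and −0.12 (edgeR adjusted p = 0.0604 and 0.44), Ebf1 0.26 and −0.31 (0.346 and 0.284), Tcf3, which encodes E2A, 0.24 and −0.14 (0.248 and 0.513), and Ikzf1 −0.10 and 0.27 (0.448 and 0.0933).

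Id2 and Id3, inhibitors of E proteins, were singled out after their values were seen, as were the core factors above. Id3 fell from 47.3 and 49.6 CPM in wild type to 7.79 and 20.05 in control sgRNA and to 9.67 and 9.92 in Cd4 sgRNA cells (log2 fold change −1.80 and −2.30, edgeR adjusted p = 0.0193 and 0.0132). Without one or the other control sgRNA library the Id3 value in control sgRNA cells ranged from −2.63 to −1.25. Both Id3 calls were lost with no filter on low counts. Id2 stood at 74.0 and 67.9 CPM in wild type, at 27.8 and 57.6 in control sgRNA and at 16.6 and 14.2 in Cd4 sgRNA cells, and passed in the last alone (log2 fold change −2.21, edgeR adjusted p = 0.00826, against −0.74 and 0.122 in control sgRNA cells). Activators and inhibitors of Rag transcription thus both stood among the genes that fell.

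Many of these regulator calls were lost when 1 library was left out and a group held a single one, with the direction kept in each case. In control sgRNA cells, 8 of the 11 were lost without wild-type replicate 1 (adjusted p up to 0.134), 8 without wild-type replicate 2 (up to 0.202), and 3 without either Cd4 sgRNA library (up to 0.0906), and those of Irf4, Foxo3 and Spi1 held under all 16 alternatives. In Cd4 sgRNA cells, 13 of 13 were lost without wild-type replicate 1 (up to 0.219) and without replicate 2 (up to 0.241), 11 without Cd4 sgRNA replicate 1 (up to 0.209) and 12 without replicate 2 (up to 0.239). Apart from leaving out a library, 7 of the 11 calls in control sgRNA cells and 10 of the 13 in Cd4 sgRNA cells held under every alternative. Between Cd4 sgRNA and control sgRNA cells, none of the 23 was called.

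**Figure D4:**
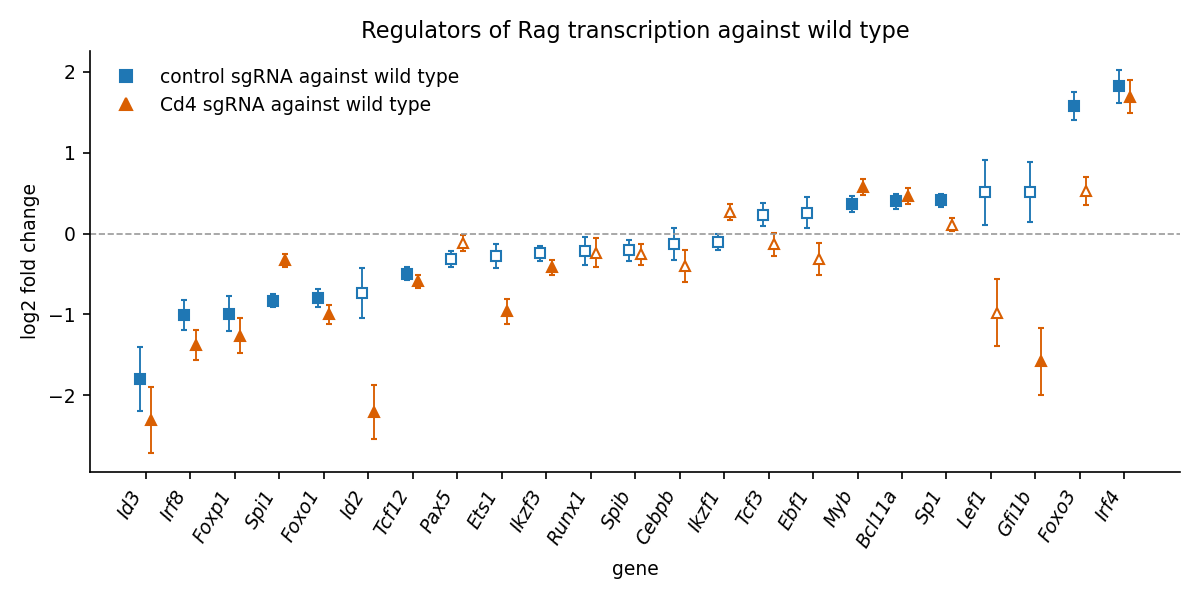
Log2 fold changes against wild type, with standard errors, of the 23 tested regulators of Rag transcription, ordered by their value in control sgRNA cells and filled where the adjusted p is under 0.05. Id3, Irf8, Foxp1, Spi1, Foxo1 and Tcf12 are filled and below 0 in both transduced groups, and Irf4, Bcl11a and Myb are filled and above 0 in both.

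The other genes of end joining complete the pathway around Prkdc, Lig4 and Xrcc4. Of 12 tested, control sgRNA cells had 2 higher and 2 lower, and Cd4 sgRNA cells 2 higher and 0 lower, with medians of 0.19 and 0.0052. Over all genes tested, 15.7% were higher and 13.6% lower in the former and 11.3% and 11.8% in the latter. Xrcc6, a subunit of the Ku heterodimer that recruits DNA-PKcs to ends, rose by 0.59 in both (edgeR adjusted p = 0.0179 and 0.0222), from 88.6 and 94.3 CPM in wild type to 152 and 122 in control sgRNA and 132 and 143 in Cd4 sgRNA cells. Its partner Xrcc5, named here because it completes the heterodimer, had 0.14 and 0.43 (edgeR adjusted p = 0.547 and 0.11). Aplf, an end joining scaffold, rose by 0.60 and 0.59 (edgeR adjusted p = 0.0179 and 0.0237). Paxx, another Ku partner, fell by 0.84 in control sgRNA cells (edgeR adjusted p = 0.0162), and Aptx, which repairs abortive ligations, fell by 0.48 (0.0193). Apart from leaving out a library, 0 of the 4 calls in control sgRNA cells and 1 of the 2 in Cd4 sgRNA cells held under every alternative. All 4 calls in control sgRNA cells were lost without either wild-type library (adjusted p up to 0.159) or either Cd4 sgRNA library (up to 0.0698), and both in Cd4 sgRNA cells without any one library of the 2 groups (up to 0.201).

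Among 15 genes of the double-strand break response, control sgRNA cells had 4 higher and 1 lower and Cd4 sgRNA cells 5 higher and 1 lower, with medians of 0.20 and 0.21, where 29.3% and 23.1% of all genes were called in either direction and 15.7% and 11.3% were higher. The genes of the complex that senses broken ends were among those higher. Rad50 rose from 105 and 106 CPM to 177 and 178 in control sgRNA cells and to 149 and 146 in Cd4 sgRNA cells (log2 fold change 0.75 and 0.49, edgeR adjusted p = 0.00218 and 0.00977). Mre11a rose by 0.71 and 0.65 (edgeR adjusted p = 0.00363 and 0.00639), Nbn rose by 0.70 in Cd4 sgRNA cells (0.0149) and Mdc1, a scaffold at marked breaks, rose by 0.59 in control sgRNA cells (0.00525). Nbn was called higher in control sgRNA cells as well, at 52.2 and 45.8 CPM against 33.4 and 28.6 in wild type. H2ax, the histone variant phosphorylated around breaks, was lower in both, by −0.41 and −0.67 (edgeR adjusted p = 0.0162 and 0.00503). Apart from leaving out a library, 4 of the 6 calls in Cd4 sgRNA cells and 4 of the 5 in control sgRNA cells held under every alternative. The Rad50 call in control sgRNA cells held under all 16 alternatives, with adjusted p up to 0.0491. Of the 5 calls there, 4 were lost without wild-type replicate 1 (up to 0.159), 3 without wild-type replicate 2 (up to 0.144) and 1 without either Cd4 sgRNA library (up to 0.0606). In Cd4 sgRNA cells all 6 were lost without any one library of the 2 groups compared (up to 0.216).

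Genes of base excision and mismatch repair, the pathways that process uracil beside Ung, were read as a further list. Of 19 tested, 3 were higher in control sgRNA and 5 in Cd4 sgRNA cells, with 0 lower in each and medians of 0.22 and 0.32. The replicative ligase Lig1 rose by 0.45 in control sgRNA cells (edgeR adjusted p = 0.0256), as did the bypass polymerase Polh by 0.53 (0.0259). In Cd4 sgRNA cells Lig1 rose by 0.57 (edgeR adjusted p = 0.0155), the exonuclease Exo1 by 0.68 (0.0235) and the polymerase theta gene Polq by 0.88 (0.0264). The Polq call was lost with voomLmFit. Apart from leaving out a library, 2 of the 3 calls in control sgRNA cells and 2 of the 5 in Cd4 sgRNA cells held under every alternative. The number of genes higher was 3 of 19 and 5 of 19, beside 15.7% and 11.3% of all genes. The 0 lower stand beside 13.6% and 11.8% of all genes. In a list of 19 genes the lack of lower calls is not read as a result. Without either wild-type library, all 3 calls in control sgRNA cells (adjusted p up to 0.166) and all 5 in Cd4 sgRNA cells (up to 0.257) were lost, and the latter also without either Cd4 sgRNA library (up to 0.31). Leaving out either Cd4 sgRNA library lost 1 of the 3 calls in control sgRNA cells (up to 0.0824). No gene of these 3 repair lists was called between Cd4 sgRNA and control sgRNA cells.

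**Figure D5:**
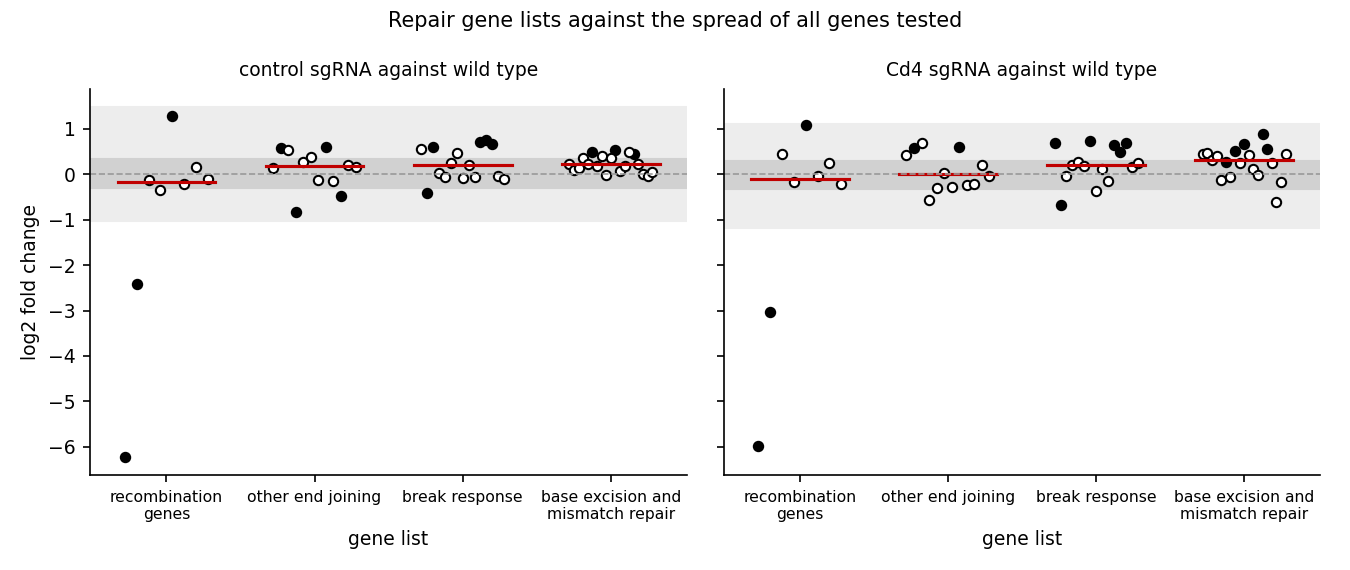
Log2 fold changes against wild type of each gene in the recombination set and in 3 repair lists, filled where the adjusted p is under 0.05, with a line at each list's median. The shaded bands hold the middle 50% and the middle 90% of all 12430 genes tested. Rag1 and Rag2 lie below the wider band in both panels, and no gene of the other 3 lists lies outside it.

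Stage markers were read beside the Rag genes, since Rag expression marks early B cell stages. The surrogate light chain genes Igll1, Vpreb1 and Vpreb2 and the cytokine receptor gene Il7r had at most 6 counts in every library, wild type included, so their defining early-stage partners were at or near 0 where Rag1 and Rag2 were detected. Of 12 early-stage genes, 3 passed the filter. Vpreb3 fell in both groups (log2 fold change −0.96 and −1.78, edgeR adjusted p = 0.0259 and 0.00669), and Bst1 rose by 1.84 in Cd4 sgRNA cells (edgeR adjusted p = 0.0133). The third, Flt3, read 49.6 and 47.9 CPM in wild type, 33.9 and 78.9 in control sgRNA and 31.7 and 28.2 in Cd4 sgRNA cells and made up most of the list's summed level, which was 55.5 CPM in both wild-type libraries, 37.5 and 83.2 in control sgRNA and 34.5 and 31.4 in Cd4 sgRNA cells.

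Mature B cell markers were lower in 4 of 10 genes in control sgRNA and 6 of 10 in Cd4 sgRNA cells and higher in none, with medians of −0.42 and −0.66, where 13.6% and 11.8% of all genes were lower. Cd79a (log2 fold change −0.94 and −1.01, edgeR adjusted p = 0.00665 and 0.00733) and Blnk (−0.73 and −0.66, 0.00286 and 0.0053), genes of the B cell receptor and its signalling, fell in both. The summed level of the 10 genes was 7990 and 8101 CPM in wild type, 5155 and 8025 in control sgRNA and 4963 and 4414 in Cd4 sgRNA cells, with no marker at 0. Cd74 made up most of that sum in every library. It stood at 5468 and 5526 CPM in wild type, 3505 and 6032 in control sgRNA and 3281 and 2792 in Cd4 sgRNA cells. Of 5 tested plasma cell markers, control sgRNA cells had 2 higher and 2 lower and Cd4 sgRNA cells 1 higher and 2 lower, against 29.3% and 23.1% of all genes called in either direction. Sdc1 rose in both (log2 fold change 0.73 and 0.93, edgeR adjusted p = 0.004 and 0.00269), and Xbp1 (−0.60 and −0.50, 0.00557 and 0.0129) and Slamf7 (−0.50 and −0.54, 0.00811 and 0.00849) fell. Prdm1 stood at 9.29 and 33.04 CPM in control sgRNA and 4.05 and 3.74 in wild-type cells (log2 fold change 2.43, edgeR adjusted p = 0.0233), and its value was 1.24 without control sgRNA replicate 2 and 3.09 without replicate 1. The Prdm1 call was lost with voomLmFit (adjusted p = 0.135), no filter on low counts (0.137) and only the 2 groups compared (0.0545), as well as without any one wild-type or Cd4 sgRNA library (up to 0.139). The plasma cell sum was between 1004 and 1448 CPM, most of it from Jchain in every library, and Tnfrsf17 had at most 3 counts.

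T cell and myeloid genes were nearly absent. The 12 T cell genes summed to between 0.818 and 2.08 CPM, with Cd3d, Cd3e and Cd3g at most at 3 counts, and 2 passed the filter. Of these, Cd5 rose by 2.09 in Cd4 sgRNA cells (edgeR adjusted p = 0.0398), where 11.3% of all genes were higher, and Lck did not pass the test. The Cd5 value rests on 7 and 8 counts in wild type and 36 and 41 in Cd4 sgRNA cells. The 8 myeloid genes summed to between 1.79 and 7.0 CPM, with 3 tested and 0 called. The part of these marker changes in the Rag values was not tested. The Cd5 call was lost with voomLmFit. Apart from leaving out a library, 0 of 1 early-stage, 3 of 4 mature B and 3 of 4 plasma calls held in control sgRNA cells under every alternative. The same numbers in Cd4 sgRNA cells were 2 of 2, 5 of 6 and 3 of 3. Without wild-type replicate 1, 1 of 1 early-stage, 3 of 4 mature B and 4 of 4 plasma calls were lost in control sgRNA cells and 2 of 2, 6 of 6 and 3 of 3 in Cd4 sgRNA cells, with adjusted p up to 0.212, and the Cd5 call was lost as well (0.252). Without wild-type replicate 2 the losses were 1 of 1, 3 of 4 and 4 of 4, and 2 of 2, 6 of 6 and 2 of 3 (up to 0.203), with Cd5 at 0.0966. Leaving out either Cd4 sgRNA library lost 1 call of each of the 3 lists in control sgRNA cells (up to 0.0879). In Cd4 sgRNA cells it lost Cd5, 2 of 2 early-stage and 6 of 6 mature B calls, and 2 of 3 plasma calls without replicate 1 and 3 of 3 without replicate 2 (up to 0.263).

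Genes whose pattern over the 6 libraries lay nearest to that of Rag1 and Rag2 were found by the Euclidean distance between log2 CPM values after each gene's mean was taken off. For Rag2 the nearest were Klf6, a zinc finger factor, at a distance of 0.2658, and Gng3, Trim30a, Cacna1s and Gpr174, at up to 0.5077. Klf6 fell from a mean of 78.8 CPM in wild type to 13.8 in control sgRNA and 8.59 in Cd4 sgRNA cells, with log2 fold changes of −2.51 and −3.20 beside the −2.42 and −3.02 of Rag2. For Rag1 the nearest were P4ha2, P2ry14, Gm6455, Adm2 and Gpr165, at distances from 1.9 to 2.281. By this distance no tested gene lay as close to Rag1 as Klf6 did to Rag2, but the distance grows with the size of the fall. The Pearson correlation with Rag1 was 0.9973 for Gpr165 and 0.9952 for P4ha2, beside 0.9988 for Klf6 with Rag2. P4ha2, a collagen prolyl hydroxylase, had a mean of 0.675 CPM in wild type, 0.0045 in control sgRNA and 0 in Cd4 sgRNA cells. Its transduced means lie below the detection floor, so its distance and correlation depend on the prior count of 2 added before taking logs. Gpr165 had means of 6.90, 0.4503 and 0.4362 CPM in the same order, and Adm2 of 7.42, 0.465 and 0.140. These likenesses rest on 6 libraries in 3 groups, share the contrast with wild type and are given as a description.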

How the data were processed

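RNA-seq of 6 A20 libraries was analysed in 3 groups of 2 replicates, as the labels give them. Reads were aligned by the authors to the mm10 (GRCm38) genome, and featureCounts assigned them to Entrez genes. What was deposited is the raw count of each gene, not normalized. The strand setting is not given in the sources used here. A joint table with the same counts was left aside.

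Symbols and positions came from RefSeq GRCm38.p6, with 25275 of 27179 identifiers matched, and exon overlaps from GENCODE M21. Annotation filters left 25227 genes, and filterByExpr left 12430. The main test was edgeR 4.0.16 (robust glmQLFit and glmQLFTest, R 4.3.3), two-sided, with TMM scaling, one term per group over all 6 libraries and Benjamini-Hochberg adjustment over all genes tested at 0.05. CPM and RPKM were computed here from the counts, TMM factors and deposited gene lengths. The standard error was derived from the log2 fold change and the F statistic. The 16 alternatives included voomLmFit (limma 3.58.1) and DESeq2 1.42.0. Scripts were tested on simulated data.

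Same-numbered replicates did not deviate together (r = −0.032, 0.020 and −0.137). Shares carry 95% Wilson intervals, for counting error alone. Replicates are named as biological in the deposit.

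The members and lists were chosen with earlier results of these data known. The text names all members, all neighbours of the Rag genes, up to 3 genes per list, direction and comparison with the smallest p among those past the threshold, and the 5 genes nearest in pattern to Rag1 and to each member with a called log2 fold change over 2. The list of break response genes had 1 further gene, Shld3, that is not analysed here. The values of 2 list genes that this rule names are not reported here.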

Additional observations from a re-analysis of the deposited data

How the results depend on the processing

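Rag1, Rag2 and Prkdc kept their direction and their call against wild type under all 16 alternatives. The number of members lower in Cd4 sgRNA than in wild-type cells was 2 under each of them. The number higher in that comparison was 2 instead of 1 with DESeq2 and with no filter on low counts and 3 with only the 2 groups compared, through Ung and Xrcc4, and it ranged from 1 to 3 with a library left out. Between Cd4 sgRNA and control sgRNA cells, 1 member in place of 0 was higher with DESeq2 and with no filter on low counts, and with a library left out the number higher ranged from 0 to 1 and the number lower from 0 to 2. In control sgRNA against wild-type cells, leaving out a library gave 1 to 2 members higher and 2 to 4 lower. A lone library left in a group was assumed to vary like the other groups. With the replicate number as a block, the members called higher and lower stayed at 1 and 2, 1 and 2, and 0 and 0 in the 3 comparisons, and over all genes 1526 were higher and 1357 lower in control sgRNA, and 1064 higher and 1119 lower in Cd4 sgRNA cells, than in wild type. A block with the control sgRNA numbers exchanged, chosen after the data were seen, called 0 members, and 1 gene higher and 4 lower over all genes, between the transduced groups.

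Over all genes the calls depended more on the method. In control sgRNA against wild-type cells 1955 were higher and 1693 lower, and these numbers fell to 1006 and 824 with only the 2 groups compared. In Cd4 sgRNA against wild-type cells they rose from 1409 and 1462 to 3786 and 3701 under that setting. Between the transduced groups 2 were higher and 7 lower with edgeR, and 538 and 889 with DESeq2. The cause was not tested. Leaving out 1 library moved these counts most, and with them the shares over all genes. In control sgRNA against wild-type cells they ranged from 255 higher and 149 lower without wild-type replicate 1 to 4190 and 3959 without control sgRNA replicate 1. In Cd4 sgRNA against wild-type cells they ranged from 138 to 4160 higher and from 83 to 3692 lower, low without a library of those groups and high without a control sgRNA library. Between the transduced groups 3867 were higher and 3879 lower without control sgRNA replicate 1, and 1534 and 1634 without replicate 2. Of 3164 values of single genes under alternatives, 2696 kept direction and call, 273 lost the call, 191 gained it and 4 reversed. The 4 that reversed were in Cd4 sgRNA against control sgRNA cells with a library left out, namely Runx1 (from −0.24 to 0.26), Irf4 (−0.41 to 0.22) and Id3 (−1.03 to 0.33), positive without control sgRNA replicate 2, and Xrcc6 (−0.15 to 0.17), positive without replicate 1. The 2 replicates per group and, for Rag1, counts of 5 to 14 in transduced cells limit the precision.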
